A study of Mus musculus with 6 samples.

Results

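Developmental homeobox genes outside the Hox clusters were described by the promoter contacts listed for them in mouse embryonic stem cells. The set holds 57 genes, namely 6 Pax, 6 Dlx, 5 Six-family, 8 Lhx and 4 Nkx genes and 28 others, such as Pitx1, Meis2, En1 and Vax2. A bait, the promoter fragment that the capture enriches, was assigned to a gene where it overlapped the gene's RefSeq body extended by 2 kb. This gave 63 baits at 51 of the genes, where 15434 protein-coding genes had a bait in all. At 47 of the 63 baits a gene end lay on the bait, and the other 16 lay inside the gene. No bait was seen for Six2, Six3, Msx2, Nkx6-2, Evx1 and Cdx1. Baits are known here only where a list or a table names them, so a bait without any listed contact is not seen. Lhx3 had a bait and no same-chromosome loop, so 50 genes had at least 1 loop in some library.

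All libraries came from the wild-type E14 (E14TG2a) line, grown in serum and leukemia inhibitory factor, and differed in the RNA transfected 48 h before harvest. The esiRNA, a pool of short interfering RNAs made by enzymatic digestion, was given at 3.5 µg against EGFP, a sequence these cells lack (Control), against Smarca4, which encodes Brg1 (Brg1KD), or against Ino80 (Ino80KD). Each of the 3 groups had 2 libraries of promoter-capture Micro-C, in which chromatin fixed with DSG and formaldehyde is cut by micrococcal nuclease, ligated and enriched for promoters. By the labels, batch 1 holds replicate 1 of all groups, batch 2 only the second Control library, and batch 3 the second Brg1KD and Ino80KD libraries. Separate cultures are not stated for the replicates, so p-values measure the spread between libraries, which may be technical. These libraries hold no RNA values, so the extent of the knockdowns and the markers of the labelled cell type were not checked here.

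Homeobox genes encode transcription factors that bind DNA through a homeodomain and set the identity of body regions, organs and neurons. Pax factors carry a paired domain, and Pax2, Pax5 and Pax8 keep only part of the homeodomain. Lhx and Isl factors add LIM domains that bind partner proteins, and genes such as Dlx5, Nkx2-5 and Six3 act in the forebrain, face, heart, gut, eye and kidney. In embryonic stem cells most of these genes are silent, and many of their promoters are CpG islands bound by polycomb repressors, which can hold distant target genes together. Brg1 is the ATPase of esBAF, the BAF remodeller of these cells, and is known to affect where polycomb complexes bind, and Ino80 is the ATPase of the INO80 remodeller. Neither polycomb binding nor transcription was measured here.

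The promoters of 4 genes that met other homeobox genes in several libraries are shown, namely Nkx2-3, Pax2 and Tlx1, which lie along chromosome 19, and Lhx2 on chromosome 2, the gene with the most loops. Each is the 250 bases before a transcription start on the plus strand in RefSeq's GRCm38.p6, the patched form of mm10, and each lay on a bait. The windows are chr19:43612075-43612324, chr19:44755502-44755751, chr19:45150465-45150714 and chr2:38339031-38339280. Capitals mark CG, the dinucleotide that CpG islands are rich in.
Nkx2-3: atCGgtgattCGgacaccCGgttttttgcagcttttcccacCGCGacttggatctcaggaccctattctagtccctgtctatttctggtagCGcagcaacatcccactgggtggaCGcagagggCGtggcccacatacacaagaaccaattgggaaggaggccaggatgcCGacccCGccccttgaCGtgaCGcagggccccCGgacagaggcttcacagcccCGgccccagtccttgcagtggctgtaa
Pax2: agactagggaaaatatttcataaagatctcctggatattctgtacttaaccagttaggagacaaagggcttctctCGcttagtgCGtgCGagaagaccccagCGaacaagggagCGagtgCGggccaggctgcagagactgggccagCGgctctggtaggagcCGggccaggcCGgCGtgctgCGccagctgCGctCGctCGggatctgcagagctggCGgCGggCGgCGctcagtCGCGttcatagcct
Tlx1: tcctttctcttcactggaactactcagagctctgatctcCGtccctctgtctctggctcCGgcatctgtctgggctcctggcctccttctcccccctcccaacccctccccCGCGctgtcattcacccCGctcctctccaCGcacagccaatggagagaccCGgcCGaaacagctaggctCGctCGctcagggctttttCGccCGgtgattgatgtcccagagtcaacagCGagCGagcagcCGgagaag
Lhx2: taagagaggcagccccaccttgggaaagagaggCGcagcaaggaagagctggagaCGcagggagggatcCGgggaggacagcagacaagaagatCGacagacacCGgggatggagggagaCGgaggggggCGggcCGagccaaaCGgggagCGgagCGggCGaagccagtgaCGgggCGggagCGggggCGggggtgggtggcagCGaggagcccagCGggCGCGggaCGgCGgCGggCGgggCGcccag

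These windows hold 14, 20, 15 and 25 CG, and G and C make up as much as 72.8% of bases, in Lhx2. RefSeq promoter windows were matched for 44 of the 57 genes, with 53 windows. Their median was 16 CG and 61.6% G and C, against 6 CG and 52.4% over 32851 windows of 27025 genes, and 45 member windows (84.9%) against 37.8% of all windows held at least 10 CG. The letters TAATTA, a core that many homeodomains bind, were searched as well. They read the same on both strands and occurred in 1 member window (1.89%), in 4.84% of all windows and in 0 of the 4 shown.

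Fewer contacts of these genes were listed after Brg1 depletion and more after Ino80 depletion. A loop here is a bait and another end on the same chromosome that the authors listed with an interaction score of 5 or more. With ends taken in listed order, 244 distinct loops had an end on a member's bait. The Control libraries listed 86 and 66 of them, the Brg1KD libraries 44 and 40, and the Ino80KD libraries 103 and 101. Both Brg1KD libraries thus lay below both Control libraries and both Ino80KD libraries above them. The lists as a whole were shorter in Brg1KD, with 12313 and 13032 same-chromosome loops against 15385 and 14451 in Control and 14752 and 14172 in Ino80KD. Per 1000 same-chromosome loops the members had 5.59 (95% Wilson interval 4.53 to 6.90) and 4.57 (3.59 to 5.81) in Control. Brg1KD libraries had 3.57 (2.66 to 4.79) and 3.07 (2.25 to 4.18), and Ino80KD libraries 6.98 (5.76 to 8.46) and 7.13 (5.87 to 8.65). These intervals cover counting error only, and they treat loops as independent. Neighbouring baits of 1 gene can list loops to the same or adjoining ends, as at Pitx1, so the intervals may be too narrow. The intervals did not overlap between Ino80KD and Brg1KD libraries, and each depletion's intervals overlapped those of at least 1 Control library.

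**Figure D1:**
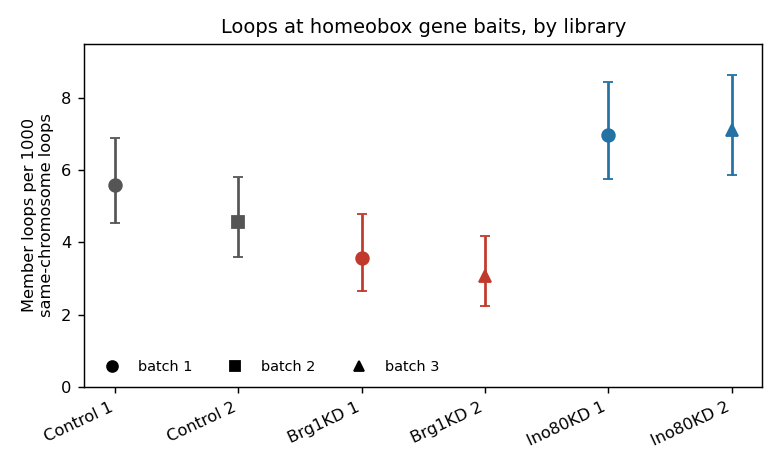
Loops of the homeobox genes per 1000 same-chromosome loops (vertical axis) in each of the 6 libraries, grouped as Control, Brg1KD and Ino80KD. Points are libraries, bars 95% Wilson intervals and marker shapes batches. The Brg1KD points, at 3.57 and 3.07, lie below the Control points, and the Ino80KD points, at 6.98 and 7.13, lie above them.

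The group means were 3.32 ± 0.354 per 1000 (SD, n = 2) in Brg1KD, 5.08 ± 0.721 in Control and 7.05 ± 0.106 in Ino80KD. The ratios were 0.654 for Brg1KD to Control, 1.39 for Ino80KD to Control and 2.12 for Ino80KD to Brg1KD. Each exact two-sided permutation p was 0.333, the smallest that 2 against 2 libraries allow, and 0.571 after Benjamini-Hochberg adjustment over 12 tests, so none passed. Both comparisons with Control use the same 2 Control libraries. Within batch 1 the ratios were 0.639, 1.25 and 1.95, and within batch 3, which holds no Control library, Ino80KD to Brg1KD was 2.32. Brg1KD replicate 1 also listed more loops between chromosomes (5254) than the other libraries (3501 to 3859), and the part of this in the lower value was not tested. With loops of a score of at least 10 the ratios were 0.795 for Brg1KD to Control, 2.37 for Ino80KD to Control and 2.99 for Ino80KD to Brg1KD, and with at least 7 they were 0.653, 1.89 and 2.9. The libraries' scores may not share a scale, so a minimum can cut each list differently.

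The number of genes with any loop moved less than the number of loops. In Control 30 and 31 of the genes had a loop, in Brg1KD 24 and 21, and in Ino80KD 32 and 39. Counted by identical ends, 12 member loops were in both Control libraries and neither Brg1KD library, of 1343 loops of all genes with that pattern, or 8.94 per 1000. The converse pattern held 0 member loops of 735, which allows a share of up to 0.408%. Against Control, 12 member loops of 984 (12.2 per 1000) were in both Ino80KD libraries only and 6 of 1087 (5.52 per 1000) in both Control libraries only. Between the depletions, 27 of 1403 (19.2 per 1000) were in both Ino80KD libraries only and 1 of 809 (1.24 per 1000) in both Brg1KD libraries only. An unlisted loop had a score under 5 and may still be present.

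Most loops were seen once. Of the 244 member loops, 151 (61.9%) were in 1 library, 42 in 2, 22 in 3, 13 in 4, 9 in 5 and 7 (2.87%) in all 6. Ends were taken in listed order, so a pair of baits listed in both orders counts as 2 loops. This held for Pax2 and Nkx2-3, in Control replicate 1 and Ino80KD replicate 2. Over all genes 68.2% of 49989 loops were in 1 library and 3.09% in all 6. The 7 loops in every library were those of Dlx3, a gene of skin and placenta, at 113.4 and 130.1 kb, and of the LIM genes Lhx1 at 264.4 kb, Lhx2 to Dennd1a at 421.5 kb and Lhx8 to Tyw3 at 240.3 kb. The others were those of Meis2, a cofactor of Hox proteins, at 216.2 kb, and of Pitx3, a gene of the lens and of dopamine neurons, to Gbf1 at 128.8 kb. Each of these 7 ran to an end with no bait.

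**Figure D2:**
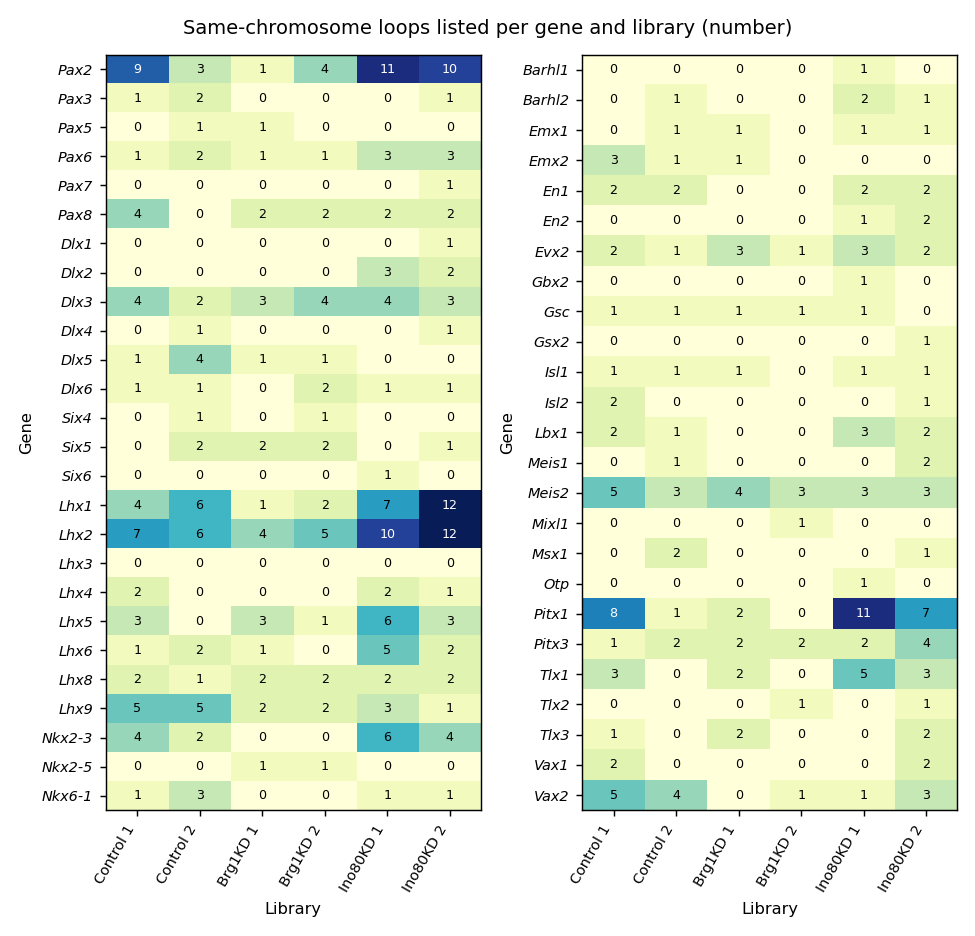
Number of same-chromosome loops (colour and printed number) at each of the 51 genes with a bait (rows, by family) in the 6 libraries (columns). Lhx2, Pax2, Lhx1 and Pitx1 have the highest means, at 7.33, 6.33, 5.33 and 4.83 loops, and Nkx2-3 and En1 have none in either Brg1KD library.

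By family, the LIM genes carried the most loops of the 5 named families. The Lhx family had 24 and 20 loops in Control, 13 and 12 in Brg1KD, and 35 and 32 in Ino80KD, or 1.56 and 1.38, 1.06 and 0.921, and 2.37 and 2.26 per 1000. These 3 groups did not overlap. Pax genes had 15 and 8 loops in Control, 5 and 7 in Brg1KD, and 15 and 14 in Ino80KD. Per 1000, their Control value in replicate 2 (0.554) was close to the Brg1KD values (0.406 and 0.537). Nkx genes had 4 and 5, then 1 and 1, then 6 and 5. Dlx genes, at 6 and 8, 4 and 7, and 8 and 8, overlapped between Control and Brg1KD, and Six4, Six5 and Six6 together had 0 to 3 loops a library. The other 28 genes had 37 and 22, 19 and 10, and 38 and 41. Per 1000, 3 of the 6 groupings were lower in both Brg1KD libraries than in both Control libraries, and 4 were higher in both Ino80KD libraries than in both Control libraries. Between the depletions, 5 were higher in both Ino80KD libraries. Some of these were near ties, and the counts of groupings were not tested. Per 1000, Pax genes had 0.988 in Ino80KD replicate 2 against 0.975 in Control replicate 1. Nkx genes had 0.353 in Ino80KD replicate 2 against 0.346 in Control replicate 2. Dlx genes had 0.542 in Ino80KD replicate 1 against 0.537 in Brg1KD replicate 2.

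Gene by gene, a count was called where both libraries of a group lay outside both of the other and the sums differed by at least 4 loops. Against Control, 7 of 51 genes (13.7%) were lower in Brg1KD, where this held for 3.73% of all 15434 genes with a bait, and 0 were higher, against 1.43% of all. The share of all genes includes many with few or no loops, which cannot meet the rule, so the shares are a description and no test was made. Without the minimum of 4 loops, 9 members were lower, where 8.44% of all genes were, and 1 was higher, where 4.25% were. These counts are raw and were not scaled for the shorter Brg1KD lists.

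Vax2, which patterns the ventral retina, had 5 and 4 loops in Control, 0 and 1 in Brg1KD, and 1 and 3 in Ino80KD, so both depletions lay below Control. Lhx1, needed for head and kidney formation, had 4 and 6 loops in Control, 1 and 2 in Brg1KD, and 7 and 12 in Ino80KD. The 3 groups did not overlap. Lhx9, a gene of the early gonad and limb, had 5 and 5, then 2 and 2, then 3 and 1, so both depletions lay below Control. Nkx2-3, which acts in spleen and gut, had 4 and 2 loops in Control, 0 and 0 in Brg1KD, and 6 and 4 in Ino80KD. Lhx2, needed for eye and cortex, had 7 and 6, then 4 and 5, then 10 and 12, again with 3 separate groups. En1, a gene of the midbrain and limb, had 2 loops in each Control and each Ino80KD library and 0 in both Brg1KD libraries. Nkx6-1, a factor of beta cells and ventral spinal cord, had 1 and 3 in Control, 0 in both Brg1KD libraries and 1 and 1 in Ino80KD.

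In Ino80KD, 4 genes (7.84%) were higher than Control by the same rule, where 2.71% of all genes were, and 4 (7.84%) were lower, where 2.19% were. The higher ones were Lhx1 and Lhx2, Pax2, a gene of kidney and optic stalk, and Dlx2, a gene of forebrain interneurons. Pax2 had 9 and 3 loops in Control, 1 and 4 in Brg1KD, and 11 and 10 in Ino80KD, and its Control and Brg1KD counts overlapped. Dlx2 had 0 loops in the Control and Brg1KD libraries and 3 and 2 in Ino80KD. The lower ones were Vax2, Lhx9, Dlx5, a gene of bone and face, with 1 and 4 in Control and 0 and 0 in Ino80KD, and Emx2, a gene of cortex and kidney, with 3 and 1 against 0 and 0. Between the depletions, 11 genes (21.6%) were higher in Ino80KD, where 4.48% of all genes were, and 0 were higher in Brg1KD, where 1.39% were. Without the minimum of 4 loops, 6 members were higher in Ino80KD than in Control, where 6.14% of all genes were, and 4 were lower, where 6.21% were. Between the depletions these were 15, where 8.87% of all genes were higher in Ino80KD, and 3, where 4.72% were lower. The 11 were Dlx2, En1, Lbx1, Lhx1, Lhx2, Lhx6, Nkx2-3, Pax2, Pax6, Pitx1 and Tlx1.

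Among genes with many loops, some kept like numbers across the groups. Meis2 had 5 and 3 loops in Control, 4 and 3 in Brg1KD, and 3 and 3 in Ino80KD, and Dlx3 had 4 and 2, 3 and 4, and 4 and 3. Both overlapped between all groups. Pitx1, a hindlimb and pituitary factor, had 8 and 1 in Control, 2 and 0 in Brg1KD and 11 and 7 in Ino80KD, so its Control counts overlapped those of both depletions. Lhx5, a gene of hippocampus and diencephalon, likewise had 3 and 0, 3 and 1, and 6 and 3.

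The loops of these genes reached further than those of other genes in every library. Their median span was 418 and 480 kb in Control, 405 and 372 kb in Brg1KD, and 489 and 438 kb in Ino80KD, against 220 to 281 kb for all other loops. Over the 6 libraries the medians were 434 ± 44.9 kb (SD, n = 6) and 250 ± 20.2 kb, higher at members in 6 of 6 libraries. The exact sign-flip permutation p, two-sided, was 0.0312, the smallest that 6 libraries allow, and 0.078 after Benjamini-Hochberg adjustment over 5 measures, which misses 0.05. The libraries share a cell line and, in part, batches. With loops of a score of at least 7 the difference in medians was 116 kb, against 184 kb for all.

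Loops over 1 Mb made up 14.1% ± 7.44 (SD, n = 6) of member loops and 8.67% ± 2.01 of others, higher at members in 4 of 6 libraries (exact sign-flip permutation p = 0.125, adjusted 0.125). The 2 libraries in which they were not higher were those of Brg1KD, with 4.55% and 7.5%, against 11.6% and 16.7% in Control and 21.4% and 22.8% in Ino80KD. Among other loops this share was also lower in Brg1KD, at 4.86% and 8.61%, against 8.95% and 10.7% in Control and 9.13% and 9.76% in Ino80KD. The median span of other loops was 220 and 260 kb in Brg1KD and 249 and 281 kb in Control. By the median span of member loops, Brg1KD lay below Control and Ino80KD overlapped Control. It was 388 ± 23.3 kb (SD, n = 2) in Brg1KD, 449 ± 43.8 in Control and 464 ± 36.1 in Ino80KD (exact permutation p = 0.333, adjusted 0.571, for Brg1KD to Control, and 0.667, adjusted 0.728, for Ino80KD to Control). The score of a median member loop stood at percentile 61.9 ± 7.49 (SD, n = 6) of its own list, above the middle in 6 of 6 libraries (exact sign-flip permutation p = 0.0312, adjusted 0.078).

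**Figure D3:**
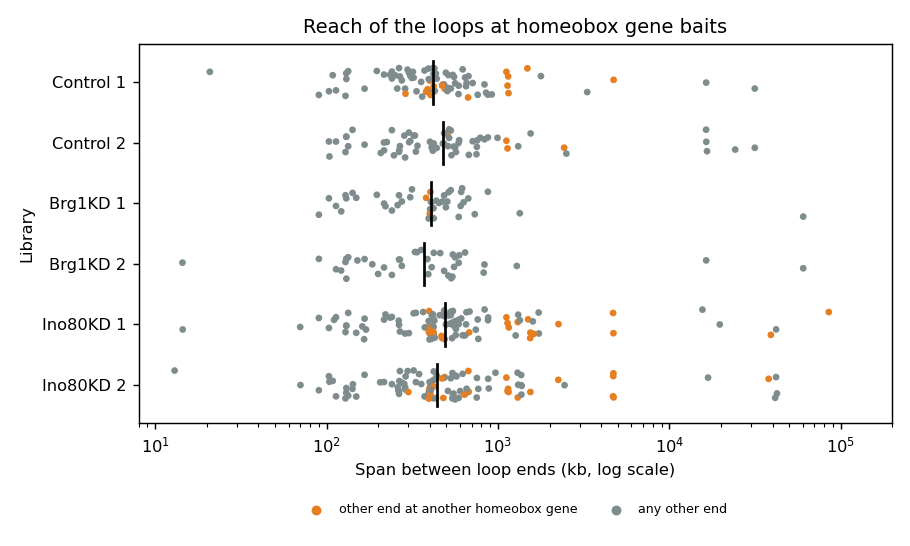
Span of every member loop (horizontal axis, kb, log scale) by library. Orange points are loops whose other end lies within 2 kb of another homeobox gene or 20 kb of another member, with Hox and Irx genes not counted. Grey points are all others, and black bars the medians, from 372 to 489 kb. Orange points are few or missing in the Brg1KD and second Control libraries.

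A minority of the far ends, from 0 to 20.8% of a library's member loops, lay at other homeobox genes. Loops among 4 genes of chromosome 19, described below, are part of these. Homeobox genes here are the members and the list of other homeobox genes given below. Neither holds Hox or Irx genes, so loops to those are not counted, such as those of Vax2 to Hoxa13. Loops with such a homeobox gene within 2 kb of the other end numbered 13 and 2 in Control, 3 and 0 in Brg1KD, and 19 and 21 in Ino80KD. They made up 15.1% and 3.03% of member loops in Control, 6.82% and 0 in Brg1KD, where 0 of 40 loops allows a share of up to 7.5%, and 18.4% and 20.8% in Ino80KD. The 2 Control values lay on either side of that of Brg1KD replicate 1, and the Ino80KD values lay above all the rest. Over the 6 libraries the mean was 10.7% ± 8.59 (SD, n = 6) against 0.725% ± 0.156 for other loops, higher in 5 of 6 (exact sign-flip permutation p = 0.0625, adjusted 0.0781). Loops that ran to a second bait made up 9.87% ± 5.44 of member loops and 3.99% ± 0.969 of others, higher in 5 of 6 (exact sign-flip permutation p = 0.0625, adjusted 0.0781). A loop between 2 baits can enter the member set by either end, while a loop to an unbaited end enters only by its bait. This raises the share at any small set of baits, so the test cannot show a trait of the members. By group, this share was 7.31% ± 6.06 (SD, n = 2) in Control, 8.53% ± 5.62 in Brg1KD and 13.8% ± 5.72 in Ino80KD, all overlapping (exact permutation p = 0.667, adjusted 0.728). Loops joining the baits of 2 members numbered 2 and 0 in Control, 0 and 0 in Brg1KD, and 3 and 4 in Ino80KD.

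A stretch of chromosome 19 that holds Nkx2-3, Pax2, Tlx1 and Lbx1 gave most of the loops between members. These genes were singled out after their values were seen, and so were the windows of 20 kb around a gene that count here as its locus, so what follows is a description. Tlx1 is needed for the spleen and Lbx1 for limb muscle and spinal cord neurons. The bait of Nkx2-3 lies at 43609886 to 43613064 with a gene end on it, and those of Pax2, inside the gene, at 44754925 to 44757784 and 44758795 to 44760654. The bait of Tlx1 is at 45149560 to 45151919 and that of Lbx1 at 45235073 to 45236932 (mm10), each with a gene end on it. Loops joining 2 of the 4 loci numbered 12 and 3 in Control, 3 and 0 in Brg1KD, and 15 and 13 in Ino80KD. The Ino80KD counts lay above all others, and Control and Brg1KD met at 3.

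Nkx2-3 and Pax2, 1119 to 1155 kb apart by loop, were joined by 4 and 2 loops in Control, 0 and 0 in Brg1KD, and 3 and 4 in Ino80KD. Their highest score was 16.45. Pax2 and Tlx1, 380.4 to 420.7 kb apart, had 6 and 0, then 3 and 0, then 6 and 5, so the replicates of Control and of Brg1KD disagreed. Pax2 and Lbx1, 467.8 to 506 kb apart, had 2 and 1, then 0 and 0, then 3 and 3. Nkx2-3 met Tlx1 in 2 and 1 loops of Ino80KD, at 1539 to 1544 kb, and in 0 of the other libraries. Apart from loops joining 2 of the 4 loci, Control libraries kept 74 and 63 member loops, Brg1KD libraries 41 and 40, and each Ino80KD library 88. Loops of any kind at the 4 genes numbered 17 and 6 for Control, 3 and 4 for Brg1KD, and 22 and 16 for Ino80KD. Leaving out the 4 genes gave ratios per 1000 of 0.705 for Brg1KD to Control, 1.33 for Ino80KD to Control and 1.89 for Ino80KD to Brg1KD. Outside this stretch, Emx1 and Vax2 met in 1 loop each of Control replicate 1 and Ino80KD replicate 1. Emx2 and Vax1 met in 1 loop each of Control replicate 1 and Ino80KD replicate 2. Lhx2 and Lhx6 met in 1 loop of each Ino80KD library.

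**Figure D4:**
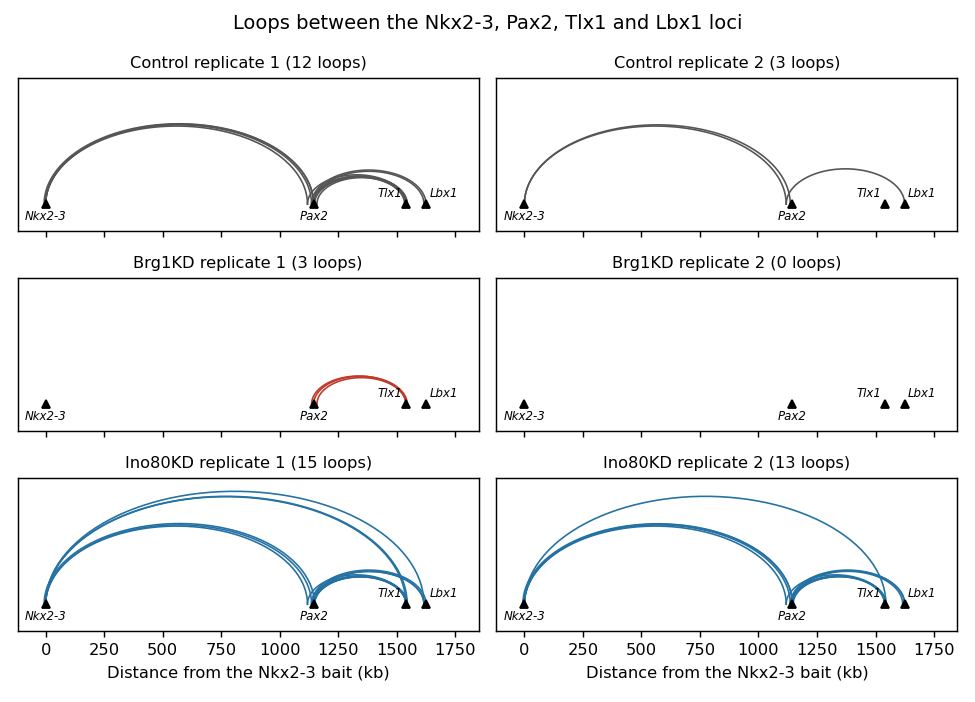
Loops joining the loci of Nkx2-3, Pax2, Tlx1 and Lbx1, drawn as arcs against distance from the Nkx2-3 bait (horizontal axis, kb), with 1 panel per library. The height of an arc has no unit. The panels hold 12 and 3 arcs in Control, 3 and 0 in Brg1KD, and 15 and 13 in Ino80KD.

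Some members met developmental genes outside the set. These pairs were picked after the loops were seen, an end within 20 kb of a partner counts as meeting it, and no test was made. Pitx1 and the neurogenic factor gene Neurog1, 393.7 to 438.4 kb apart, were joined by 7 and 1 loops in Control, 2 and 0 in Brg1KD, and 8 and 7 in Ino80KD. The end lay on Neurog1 itself in only 2 and 0, 0 and 0, and 4 and 1 of these, and the others ended beside it. Lhx2 met Lmx1b, a LIM gene of limb and kidney, 4689 to 4722 kb away, in 1 and 0 loops in Control, 0 and 0 in Brg1KD, and 2 and 4 in Ino80KD. Its score reached 19.38. Lhx1 met Tbx2 or Tbx4, T-box genes of heart and limb, in 0 and 1, 0 and 0, and 1 and 5 loops. Lhx5 met Tbx3 or Tbx5 in 3 and 0, 1 and 1, and 5 and 3, and Pax6, the eye gene, met Wt1, a kidney gene, in 1 and 0, 0 and 1, and 3 and 2. In these 5 pairs the Ino80KD libraries summed to the highest count, and single libraries touched those of another group for Pitx1, Lhx1 and Lhx5. Other pairs did not share this order. Lhx2 met Nr5a1, a gene of gonad and adrenal, in 2 and 0 loops in Control, 0 and 0 in Brg1KD and 1 and 1 in Ino80KD, so Control and Ino80KD tied. Vax2 met Hoxa13 in 1 and 1 loops in Control and in 0 loops of the depletions.

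Further partners, picked in the same way, varied. Lhx2 met Dennd1a in 4 and 6 loops in Control, 3 and 4 in Brg1KD, and 6 and 6 in Ino80KD, and Lhx8 met Tyw3 in 2 and 1 loops in each group. Pitx3 met Gbf1 in 1 and 2, 2 and 2, and 2 and 3. Lhx9 met Dennd1b or Crb1 in 4 and 4, 2 and 1, and 3 and 1, with both depletions below Control. Lhx6 met Dab2ip in 0 and 1, 0 and 0, and 3 and 0, and Emx2 met Fam204a in 1 and 1, 1 and 0, and 0 and 0. For Vax2, loops of 16360 to 16400 kb to Il12rb2, a cytokine receptor gene, numbered 1 and 2 in Control, 0 and 1 in Brg1KD and 0 and 0 in Ino80KD. Those to Cyp26b1, a gene that degrades retinoic acid, numbered 0 in the Control and Brg1KD libraries and 1 and 2 in Ino80KD.

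The authors' deposited tables compare each depletion with Control contact by contact. No header states the direction, and values above 0 were taken as higher after depletion because loops listed only in both Brg1KD libraries were above 0 in 83.4% of 729 cases in the authors' deposited table, and those only in both Ino80KD libraries in 86.3% of 976. Regions listed for 1 bait may overlap, so its entries are not independent. For Brg1KD the authors' deposited table held 132 entries at 49 baits of 40 members, with a median log2 fold change of -0.149, against -0.008 over all 33243 entries. The median over baits in the authors' deposited table was -0.105, with 33 of 49 baits below 0, against -0.012 over all baits. In the authors' deposited table, 0 entries of members passed an adjusted p of 0.05, where 0.0% of all did, and each adjusted p of the table's members was 1.0. With the threshold of 0.05 set on unadjusted p-values, the authors' deposited table had 3 member entries lower (2.27%, where 0.827% of all entries were) and 0 higher (where 0.373% were).

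Those 3 were 2 overlapping contacts of Nkx2-3 with the region of Pax2, at -0.94 ± 0.46 (SE, p = 0.0398) and -0.96 ± 0.47 (p = 0.0403) in the authors' deposited table, and a contact of Meis2 196 kb away, at -0.31 ± 0.14 (p = 0.0314). In the authors' deposited table the contact of Pitx1 with the region of Neurog1 and Cxcl14 was at -0.80 ± 0.42 (p = 0.058), which missed that level, and that of Pitx3 with the region of Gbf1 was at 0.42 ± 0.22 (p = 0.0509), which missed it too. By family, the medians in the authors' deposited table for Brg1KD were -0.05 for the Pax family, 0.04 for Dlx genes, -0.21 for Six-family genes, -0.15 for Lhx, -0.49 for Nkx and -0.23 for the others. The authors' deposited table had 27 of 35 Lhx entries and all 7 Nkx entries, of 3 genes, below 0, while 9 of 13 Dlx entries lay above it. Of all entries in the authors' deposited table, 48.7% lay above 0.

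For Ino80KD the authors' deposited table held 183 entries at 57 baits of 46 members, with a median log2 fold change of 0.169, against 0.002 over all 34774 entries. The median over baits in the authors' deposited table was 0.145, with 40 of 57 baits above 0, against -0.009 over all baits. Again 0 member entries of the authors' deposited table passed the adjustment, where 0.0% of all did. Before adjustment, at the same threshold, the authors' deposited table had 10 member entries higher (5.46%, where 0.912% of all entries were) and 0 lower (where 0.382% were). Both tables share the Control libraries, and the lists come from the same libraries, so neither is separate support for the other.

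**Figure D5:**
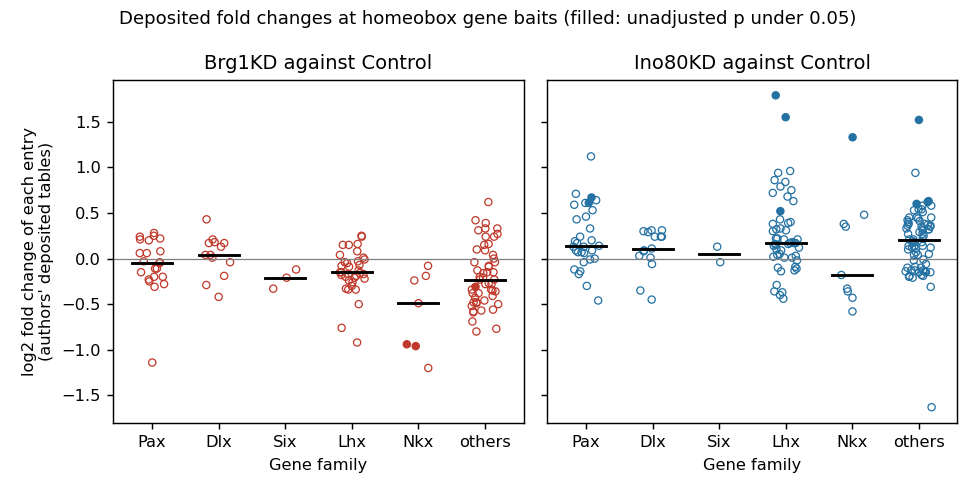
Log2 fold changes of the member entries in the authors' deposited tables (vertical axis) by family, for Brg1KD and for Ino80KD against Control. Filled points have an unadjusted p under 0.05, and lines are family medians. The medians run from -0.49 to 0.04 in Brg1KD and from -0.18 to 0.20 in Ino80KD.

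Of these 10, 6 lie in the stretch of chromosome 19. Nkx2-3 with the region of Tlx1 and Lbx1, 1550 kb away, stood at 1.33 ± 0.51 (SE, p = 0.00912) in the authors' deposited table. Overlapping entries between Tlx1 and Pax2 lay at 0.60 to 0.67 in the authors' deposited table, with p from 0.035 to 0.0483. Lhx2 with the region of Lmx1b had 2 entries in the authors' deposited table, at 1.79 ± 0.69 (p = 0.00981) and 1.55 ± 0.67 (p = 0.0216), and Lhx2 with Crb2 and Dennd1a had 0.52 ± 0.26 (p = 0.0482). Vax2 with Cyp26b1 and Exoc6b was at 1.52 ± 0.67 (p = 0.0243) in the authors' deposited table, while its contact near Il12rb2 was at -1.63 ± 0.83 (p = 0.0505), which missed that level. By family, the authors' deposited table for Ino80KD had medians of 0.14 for the Pax family, 0.11 for Dlx genes, 0.05 for Six-family genes, 0.17 for Lhx, -0.18 for Nkx and 0.20 for the others. The authors' deposited table had 24 of 31 Pax and 41 of 52 Lhx entries above 0, where 50.4% of all entries were.

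A list of other homeobox genes, with no Hox or Irx genes among them, was counted in the same way. Of its 103 genes found in the annotation, 85 had a bait, 119 baits in all. Their loops numbered 128 and 101 in Control, 96 and 88 in Brg1KD, and 135 and 143 in Ino80KD, or 8.32 and 6.99, 7.80 and 6.75, and 9.15 and 10.1 per 1000. Control and Brg1KD overlapped, with a ratio of 0.95 (exact permutation p = 0.667, adjusted 0.667 over these 3 comparisons). The ratios were 1.26 for Ino80KD to Control and 1.32 for Ino80KD to Brg1KD (exact permutation p = 0.333, adjusted 0.5, for each). The difference between these genes and the members was not tested. In the authors' deposited table for Brg1KD, their 236 entries had a median of -0.034, with 2 lower and 6 higher before adjustment. In the authors' deposited table for Ino80KD, their 282 entries had a median of 0.09, with 1 lower and 6 higher.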

How the data were processed

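Promoter-capture Micro-C lists of 6 libraries, 2 per group, were used. Each loop has a score, which the authors deposited and which starts at 5. Caller and aligner are not given in the sources used here, and the depth per library is unknown. The submitters' processing notes name mm10 and bedtools. Per the file headers, the deposited tables hold p-values with and without adjustment, log2 fold changes and their errors, a statistic and a mean normalized signal.

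The test of contact counts first intended could not be run, since the files give no read counts, and no model across features was fitted. Loops per 1000 same-chromosome loops were compared between groups with exact two-sided permutation tests, and members with other loops by exact sign flips over libraries, with Benjamini-Hochberg adjustment. The totals include 1 bait on chromosome 2 (98661117 to 98662976) with 57 to 77 loops a library. Genes were placed on RefSeq's GRCm38.p6. The members and gene lists were chosen with earlier results of these data known. Named were members with an entry at an unadjusted p under 0.05, the 10 with most loops, those joined to another member in at least 2 libraries, up to 6 per comparison by separated counts (ties and the remaining called genes were added after their values were seen), and those without bait or loop. Alternatives were other score minimums, gene extensions, omitted libraries, genes or families, and a replicate block. Same-numbered Ino80KD and Brg1KD libraries share a batch per the labels, and over 50 genes their deviations from the group means correlated at 0.12. The counting was tested on simulated lists. Python 3.11.15, pandas 2.3.3, NumPy 2.4.6, SciPy 1.17.1, statsmodels 0.14.6 and matplotlib 3.10.9 were used.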

Additional observations from a re-analysis of the deposited data

Results flagged for a closer look

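Loops between chromosomes lie outside the comparisons above. At the homeobox genes they numbered 8 and 5 in the Brg1KD libraries, above the 3 and 1 in Control, and 2 and 7 in Ino80KD. Per 1000 such loops of all genes the values were 1.52 and 1.41 in Brg1KD, 0.82 and 0.265 in Control, and 0.518 and 2.0 in Ino80KD, so Ino80KD overlapped both other groups. A loop between the bait of Dlx6 and a bait of Dio1 on chromosome 4 (107306379 to 107308238) was in all 6 lists, with scores of 5.79 and 5.84 in Control, 23.95 and 24.8 in Brg1KD, and 6.5 and 22.37 in Ino80KD. Scores of separate lists are not on a common scale. The difference was not tested.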

How the results depend on the processing

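The 3 ratios of the members' loops per 1000 kept their direction under the alternatives run. As log2 ratios of loops per 1000, Brg1KD to Control was -0.61, ran from -0.75 to -0.46 with 1 library left out, and from -0.86 to -0.33 under the other alternatives. The -0.86 is a ratio of unscaled numbers of member loops, and the lowest scaled value among these alternatives was -0.73, per 1000 loops of any kind. Ino80KD to Control was 0.47, with 0.34 to 0.63 and 0.32 to 1.25, and Ino80KD to Brg1KD was 1.09, with 0.98 to 1.2 and 0.86 to 1.58. With the replicate number as a block they were -0.61, 0.48 and 1.09 (exact permutation p = 0.5, the smallest that 2 pairs allow). Neither this nor the unblocked test can pass 0.05, so the block could change no call. It pairs Control replicate 2, of batch 2, with depletion libraries of batch 3, so it does not adjust the Control comparisons for batch. For the other homeobox genes, Brg1KD to Control (-0.07) turned to 0.03 without Brg1KD replicate 2 and 0.06 without Control replicate 1, with -0.19 to 0.06 over all libraries left out. Ino80KD to Control ran there from 0.21 to 0.46 and Ino80KD to Brg1KD from 0.3 to 0.51. In the authors' deposited tables, the 3 Brg1KD entries became 0 at an unadjusted p under 0.01 and 1 among entries above the median signal, and the 10 Ino80KD entries became 2 and 6. At a score of at least 7 the span difference was 116 kb and the share of member loops in 1 library 67.9%. Leaving out the 4 genes of chromosome 19, and other scores or gene extensions for reach, families and listings, were alternatives chosen after seeing the data. The causes were not tested. The exact permutation test used here cannot pass 0.05 with 2 libraries a group, and the unknown depth limits what an unlisted loop shows.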

Other observations

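A few member loops spanned over 10 Mb, 2 and 5 in Control, 1 and 2 in Brg1KD, and 5 and 5 in Ino80KD, so the groups overlapped. Several joined developmental genes. In Ino80KD lists Dlx2 met Lmx1b at 37920 kb (score 15.89), Meis2 met Hoxd11 at 41380 kb (score of 12) and Pax6 met Foxa2, a gene of endoderm and floor plate, at 42380 kb (9.31), each in replicate 2 only, and Pitx1 met Otp, a gene of the hypothalamus, at 39060 kb (8.37) in replicate 1 only. Evx2, beside the Hoxd genes, met an end with no bait at 41890 kb in both Ino80KD libraries. In Control lists Vax2 met Hoxa13 at 31460 kb in both libraries, and in neither library of either depletion. These loops were picked after they were seen.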
